A study of Sus scrofa with 9 samples.

Results

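The 7 mitochondrially encoded subunits of complex I, ND1, ND2, ND3, ND4, ND4L, ND5 and ND6, were followed in porcine hearts of a donation-after-circulatory-death (DCD) model. They were taken by gene symbol from a table of 25149 genes, and all 7 were found. Each was read in TPM, read numbers corrected for the length of the gene and set to add up to 1000000 in every heart, and as its share of the 13 coding genes of mitochondrial DNA (the 7 ND genes with CYTB, COX1, COX2, COX3, ATP6 and ATP8).

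RNA sequencing of 9 apex biopsies, 1 per heart, was analyzed in 3 groups of 3 hearts. Group 1 (NRP + HOPE 24 h, pigs 27, 28 and 30) received 60 min of NRP (normothermic regional perfusion, the warm perfusion of organs within the donor) and then 24 h of hypothermic oxygenated perfusion (HOPE) at 8 °C. Group 2 (NRP + SCS 2 h, pigs 24, 25 and 29) received the same NRP and then 2 h of static cold storage (SCS) at 4 °C. Group 3 (No NRP + HOPE 2 h, pigs 31, 33 and 34) was procured without NRP and kept for 2 h in HOPE at 8 °C. All donors were female American Yorkshire pigs of 4 to 6 months, all hearts had 15 min of warm ischemia, and all biopsies were taken after 2 h of normothermic machine perfusion (NMP) on a circuit primed with donor whole blood, so no heart shows the state before reperfusion. The HOPE perfusate of Groups 1 and 3 also held packed red cells of donors, whereas Group 2 hearts were stored in preservation solution. Groups 1 and 2 differ in storage method, duration and temperature at once, and Groups 3 and 2 in NRP, storage method and temperature at once, so the parts of these factors cannot be told apart.

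Complex I, the NADH dehydrogenase of the inner mitochondrial membrane, passes electrons from NADH to ubiquinone and pumps protons across the membrane. The ND proteins form the core of its membrane arm, where the protons are moved, whereas the NADH-binding arm and the surrounding accessory subunits are encoded in the nucleus. Mitochondrial DNA is transcribed into long RNAs that are cut into messages, and heart muscle is known for its dense mitochondria. Complex I is also a well-known source of reactive oxygen species when blood returns after ischemia.

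The 13 mitochondrial coding genes held between 38.2% of all TPM (pig 30) and 55.3% (pig 27), and the 7 ND genes alone between 9.25% (pig 30) and 12.8% (pig 28). The 13 genes together had 49.4% ± 9.71 of all TPM in Group 1, 50.2% ± 2.18 in Group 2 and 49.6% ± 5.09 in Group 3 (mean ± SD, n = 3 hearts in this and all group values). TPM of 1 heart always add to the same total, so a level of an ND gene is a part of a whole in which the mitochondrial genes are themselves a large share. Fewer cells of a type and less RNA per cell cannot be told apart in such bulk samples. The labels name cardiomyocytes as the cell type, and the 7 cardiomyocyte markers matched (among them MYH7, TNNT2, TNNI3 and ACTC1) summed to between 31063 and 59147 TPM. Markers of other cells were also detected, with 177 to 410 TPM for 5 endothelial, 669 to 1150 for 5 fibroblast, 188 to 426 for 4 smooth muscle and pericyte, and 21.4 to 58.4 for 6 leukocyte markers, while CSF1R, S100A8 and the erythroid marker SLC4A1 had a mean under 1 TPM. The smooth muscle marker MYH11 and the skeletal muscle marker MYH2 were listed at 0 in all 9 hearts, as were NDUFB10, SLIRP and PPARGC1A, which heart muscle is known to use, so a listing at 0 is not read here as a low or absent level.

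All 7 ND genes were among the most abundant genes of the table. By mean TPM over the 9 hearts, ND6 (gene ENSSSCG00000018092, 26062 ± 5027 TPM) held rank 6 among 25149 genes, ND1 (ENSSSCG00000018065, 19762 ± 2038) rank 8, ND2 (ENSSSCG00000018069, 19202 ± 3367) rank 9 and ND4 (ENSSSCG00000018087, 17461 ± 2164) rank 10. ND5 (ENSSSCG00000018091, 12260 ± 2219 TPM) held rank 15, ND3 (ENSSSCG00000018084, 9315 ± 1383) rank 19 and ND4L (ENSSSCG00000018086, 7183 ± 2460) rank 22. The other 6 mitochondrial coding genes took ranks 1 to 5 and 7, from 24418 TPM for CYTB to 114300 TPM for ATP6. ND6 was above ND1 in 9 of 9 hearts, and ND4 above ND5 in 9 of 9. The other neighbours in this order did not differ beyond their spread: ND1 was above ND2 in 5 of 9 hearts, ND2 above ND4 in 5, ND5 above ND3 in 7 and ND3 above ND4L in 6.

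**Figure D1:**
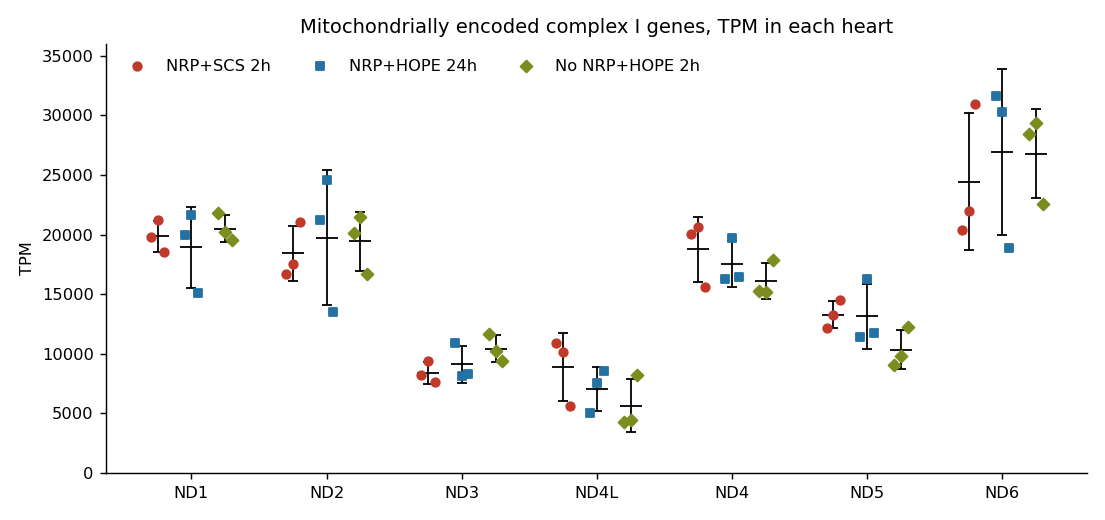
TPM (linear axis from 0) of the 7 ND genes in each of the 9 hearts, by group, with a horizontal line at each group mean and bars of 1 SD (n = 3). The groups overlap in every gene except ND3 between Group 3 and Group 2, where the nearest hearts have 9404 and 9389 TPM, and ND6 has the highest levels and the longest SD bars.

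ND1 and ND2 encode membrane-arm subunits and lie next to each other at the start of the gene order on mitochondrial DNA. ND1 had 20002, 21676 and 15102 TPM in the hearts of Group 1 (pigs 27, 28 and 30), 19785, 21193 and 18564 in Group 2 (pigs 24, 25 and 29) and 21784, 20182 and 19570 in Group 3 (pigs 31, 33 and 34). Pig 30 was the lowest and the other hearts were close together, and ND1 had the smallest spread of the ND genes (coefficient of variation 10.3% over the 9 hearts). ND2 had 21226, 24556 and 13464 TPM in Group 1, 16662, 17558 and 21075 in Group 2 and 20167, 21437 and 16673 in Group 3. The highest and the lowest ND2 values, pigs 28 and 30, belonged to the same group, and the 3 groups overlapped.

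ND3, a small subunit whose loop is known to move between the active and the deactive state of complex I, had 10907, 8167 and 8307 TPM in Group 1, 8188, 9389 and 7607 in Group 2 and 11641, 10220 and 9404 in Group 3. All Group 3 hearts were above all Group 2 hearts, although the nearest pair had 9404 and 9389 TPM, while Group 1 overlapped with both. As a share of the 13 mitochondrial genes, ND3 made up 2.12%, 2.08% and 2.10% in Group 3, 1.69%, 1.90% and 1.44% in Group 2 and 1.97%, 1.49% and 2.17% in Group 1. The Group 3 hearts thus lay close together and above Group 2, and pig 30 of Group 1 was higher still.

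ND4L and ND4 are a membrane-arm pair whose genes overlap. The sources used here do not say how reads of the shared stretch were counted, so the levels of the pair are not read as those of separate messages. ND4L had 5031, 7571 and 8534 TPM in Group 1, 10864, 10116 and 5599 in Group 2 and 4272, 4430 and 8232 in Group 3, and was the most variable ND gene (coefficient of variation 34.3%). The highest heart of each group had at least 8232 TPM and the lowest at most 5599 TPM, so the groups overlapped widely. ND4 had 16305, 19735 and 16470 TPM in Group 1, 20043, 20605 and 15630 in Group 2 and 15309, 15170 and 17886 in Group 3, with overlap between all groups.

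ND5 encodes the subunit at the far end of the membrane arm, and ND6 is the only one of the 13 coding genes read from the opposite strand. ND5 had 11376, 16272 and 11753 TPM in Group 1, 12170, 13231 and 14472 in Group 2 and 9064, 9773 and 12228 in Group 3. Pigs 31 and 33 of Group 3 were the lowest of the 9 hearts, and pig 34 lay among the others. ND6 had 31595, 30300 and 18914 TPM in Group 1, 20386, 21969 and 30996 in Group 2 and 28481, 29372 and 22548 in Group 3. High and low hearts were found in every group. ND6 overlaps ND5, and the sources used here do not say that reads were counted by strand, so reads of ND6 and of RNA antisense to it cannot be told apart. Human ND6 message is known to lack the long poly(A) tail of other mitochondrial messages, and these libraries were enriched with oligo(dT) beads. Copies of mitochondrial DNA in nuclear chromosomes are a further source of shared reads, and the authors counted uniquely mapped reads.

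**Figure D2:**
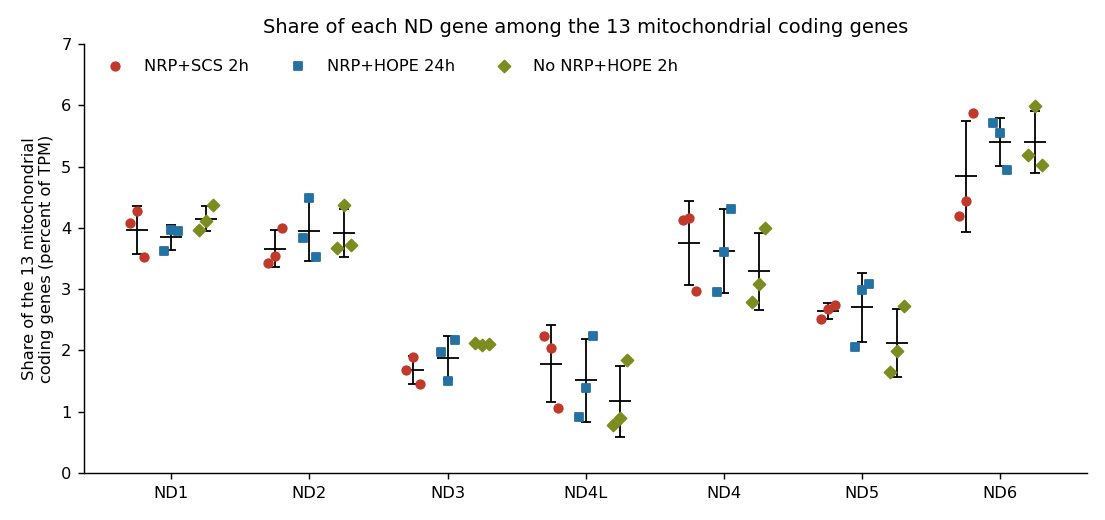
Share of each ND gene among the summed TPM of the 13 mitochondrial coding genes (percent, linear axis from 0) in each heart, with group means and bars of 1 SD (n = 3). ND6 has the highest share (4.20% to 5.98%) and ND4L the widest relative range (0.777% to 2.24%), and the 3 Group 3 hearts lie together for ND3.

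Measured against the other mitochondrial genes, the ND genes varied less in sum than singly. The 7 genes together made up 22.9% ± 1.66 of the 13 genes in Group 1, 22.3% ± 0.714 in Group 2 and 22.1% ± 1.84 in Group 3, with a range of 20.1% (pig 31) to 24.2% (pig 30). Pig 30, in which the 13 genes held the smallest part of the library, thus had the highest ND share within them. Over the 9 hearts the share ranged from 3.52% to 4.37% for ND1, from 3.43% to 4.49% for ND2, from 2.79% to 4.31% for ND4 and from 1.65% to 3.08% for ND5.

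The shares of several mitochondrial genes separated the same hearts in each group, a pattern that was singled out after the values were seen. ND4L made up 2.24% of the 13 genes in pig 24, 2.04% in pig 25, 2.23% in pig 30 and 1.84% in pig 34, and at most 1.39% in the 5 other hearts. ND4 was also higher in these 4 hearts (3.99% to 4.31%, against at most 3.61%), and so was COX1 (17.4% to 18.3%, against at most 15.5%). ND6 was lower in them (4.20% to 5.03%, against at least 5.18%), and so was COX3 (13.3% to 13.8%, against at least 14.3%). ATP6 was lower as well (20.5% to 22.7%, against at least 23.0%). The shares of ND1, ND2, ND3, ND5, CYTB, COX2 and ATP8 did not separate these hearts. Shares of the same total depend on each other, so higher shares of some genes lower those of others. The hearts come from Group 2 (pigs 24 and 25), Group 1 (pig 30) and Group 3 (pig 34), and the labels name no batch. The paper selected samples with an RNA integrity number above 6, and values for single hearts were not used here.

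The ratios of overlapping neighbours, also chosen after the values were seen, reuse the same levels and are therefore no further support for this pattern. The ratio of ND4L to ND4 was 0.309, 0.384 and 0.518 in Group 1, 0.542, 0.491 and 0.358 in Group 2 and 0.279, 0.292 and 0.460 in Group 3. The ratio of ND6 to ND5 was 2.78, 1.86 and 1.61 in Group 1, 1.68, 1.66 and 2.14 in Group 2 and 3.14, 3.01 and 1.84 in Group 3. Pigs 24, 25, 30 and 34 had the highest ND4L to ND4 ratios and the lowest ND6 to ND5 ratios, the latter by little, since pig 34 had 1.84 and pig 28 had 1.86, and pigs 31, 33 and 27 were at the other end of both. The overlapping pair ATP8 and ATP6, outside complex I, had a ratio between 0.231 (pig 31) and 0.334 (pig 30).

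**Figure D3:**
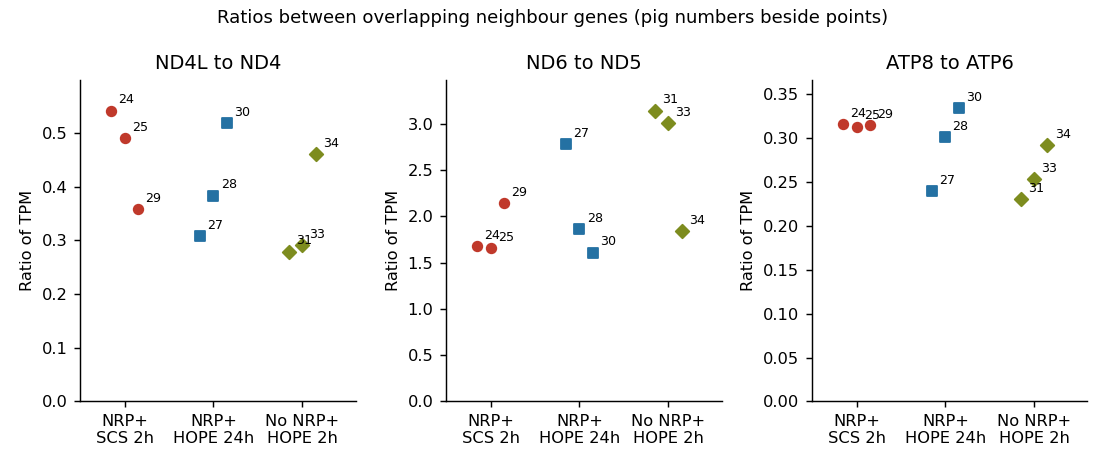
Ratio of TPM between 3 pairs of overlapping mitochondrial genes in each heart (linear axes from 0, pig numbers beside the points). Pigs 24, 25, 30 and 34 have the highest ND4L to ND4 ratios (0.460 to 0.542) and the lowest ND6 to ND5 ratios (1.61 to 1.84), with members in all 3 groups, and pig 28 is close behind for ND6 to ND5 (1.86).

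To ask whether extended HOPE changed these transcripts, Group 1 was compared with Group 2 by limma on log2(TPM + 1), with all 9 hearts in 1 fit. None of the 7 ND genes was called (adjusted p under 0.05 and more than 1 log2 unit of change), where 0.0255% of the 11782 genes tested were called. None reached an unadjusted p under 0.05 either, a level that 4.97% of all genes reached. The log2 fold changes of NRP + HOPE 24 h over NRP + SCS 2 h ran from -0.31 for ND4L (95% interval -0.98 to 0.36) to 0.13 for ND6 (-0.36 to 0.62), and the limma adjusted p-values from 0.993 to 0.994. They were -0.08 for ND1 (-0.46 to 0.29), 0.06 for ND2 (-0.41 to 0.54), 0.11 for ND3 (-0.29 to 0.52), -0.09 for ND4 (-0.48 to 0.29) and -0.03 for ND5 (-0.45 to 0.39). The ND4L estimate kept its sign but rested on single hearts, since it became -0.61 without pig 29 and -0.082 without pig 27. Leaving out 1 heart reversed ND2 and ND5 in 3 of 6 fits each, and ND1, ND3 and ND6 in 1 each. The median over the ND genes was -0.03 (3 higher, 4 lower), beside -0.12 over all genes tested. Scaling by median of ratios moved the median of all genes by 0.12 to 0.00 and put 6 ND genes higher and 1 lower. Quantile normalization left 1 higher, with ND2 turned lower and no difference in ND3. Leaving the mitochondrial genes out of the total kept 3 higher and 4 lower. The signs of several of these small differences thus depended on the scaling. ND4L was lower in all 16 fits, including those leaving out 1 heart (-0.61 to -0.08).

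No ND gene had groups without overlap in this comparison, against 9.82% of all genes. All 3 erythroid markers tested were higher in Group 1 (median log2 fold change 0.91), with HBB (1.27) at an unadjusted p from limma under 0.05. Of the 5 leukocyte markers tested, 2 were higher and 3 lower (median -0.12). Among them S100A9 was also under 0.05 unadjusted (-1.35, limma adjusted p = 0.792), and its part in the ND values was not tested. Summed over the 7 genes, Group 1 had 112420 ± 18202 TPM and Group 2 112034 ± 3409, a difference of 386 TPM (exact permutation test, two-sided, p = 1, where 3 hearts against 3 cannot give less than 0.1). Leaving out 1 heart moved this difference between -7541 and 10324 TPM and reversed it in 3 of 6 cases. The SD of Group 1 was set by pigs 28 and 30, with 128275 and 92545 TPM. The summed share of the 13 genes differed by 0.598 percentage points (exact permutation test, p = 0.7), and the lowest exact p for the share of a single ND gene was 0.4.

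**Figure D4:**
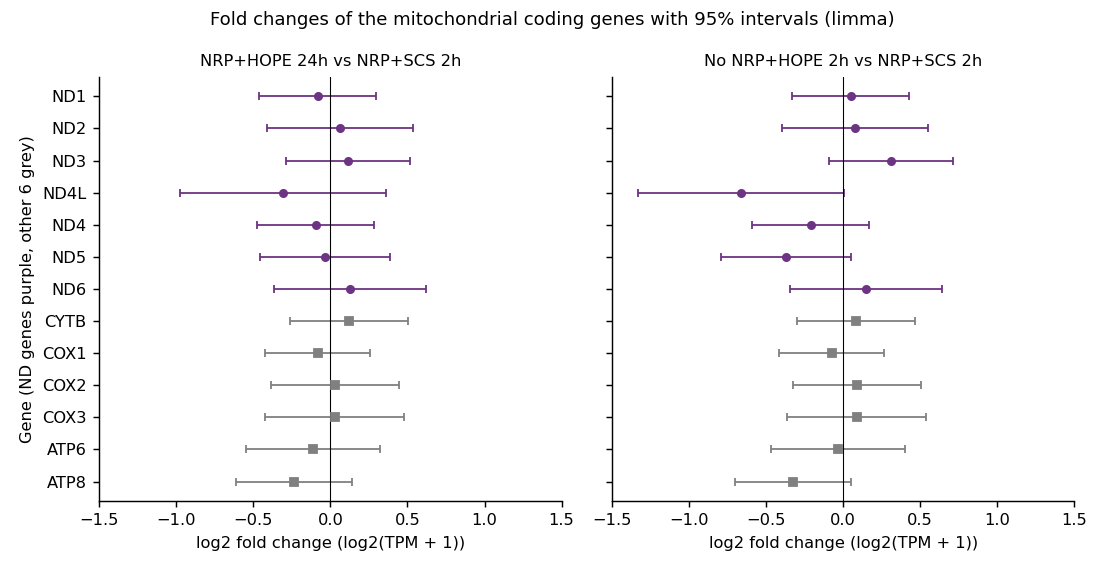
Log2 fold changes on the log2(TPM + 1) scale with 95% intervals from limma for the 13 mitochondrial coding genes, Group 1 over Group 2 on the left and Group 3 over Group 2 on the right (3 hearts per group). All 26 intervals include 0, and that of ND4L in the right panel (-1.33 to 0.01) reaches it by the smallest margin.

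To examine the contribution of NRP, Group 3 was compared with Group 2, with the same Group 2 hearts as above. None of the 7 ND genes was called, against 0.0509% of all genes, and none had an unadjusted p from limma under 0.05, against 7.22%. The ND4L level was 5645 ± 2242 TPM without NRP and 8860 ± 2848 with NRP and SCS (log2 fold change -0.66, standard error 0.31, 95% interval -1.33 to 0.01, limma adjusted p = 0.693). ND5 had 10355 ± 1660 and 13291 ± 1152 TPM (log2 fold change -0.37, interval -0.79 to 0.05, limma adjusted p = 0.746). ND3 had 10422 ± 1132 and 8395 ± 908 TPM (log2 fold change 0.31, interval -0.09 to 0.71, limma adjusted p = 0.803). The fold changes of the other 4 were 0.05 for ND1 (-0.33 to 0.43), 0.08 for ND2 (-0.40 to 0.55), -0.21 for ND4 (-0.59 to 0.17) and 0.15 for ND6 (-0.34 to 0.64). ND1 became 0.0010 without pig 29, ND2 1.2e-05 without pig 33 and ND6 0.029 without pig 24.

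Thus ND4L, ND4 and ND5 had lower means without NRP and the 4 other ND genes had higher ones. None of these differences passed the test. The lower genes follow each other on mitochondrial DNA, but ND6, the next gene, was higher. Of the other 6 mitochondrial coding genes 3 were higher and 3 lower. Among them ATP8, which lies apart, had -0.32 (interval -0.70 to 0.05, limma adjusted p = 0.750) and groups without overlap, as 14.7% of all genes had. Over 16 fits, including those leaving out 1 heart, the unadjusted p of ND4L from limma ran from 0.00542 to 0.183. It was under 0.05 in 6 of these fits, and that of ND5 in 4. No adjusted p of any ND gene in any comparison fell below 0.137. The median over the ND genes was 0.05, beside -0.07 over all genes. ND3 was the 1 ND gene of 7 without overlap, against 14.7% of all genes, and its share of the 13 genes differed by 0.424 percentage points (exact permutation test, two-sided, p = 0.1, adjusted p = 0.747 over the 28 combinations of gene and comparison). The summed ND level differed by -2753 TPM (109281 ± 2374 against 112034 ± 3409 TPM with NRP and SCS, exact permutation test, p = 0.3), but by 6916 with median-of-ratios scaling, which moves the median of all genes from -0.07 to 0.0052 and leaves 4 ND genes higher and 3 lower. The summed share of the 13 genes differed by -0.164 percentage points (exact permutation test, p = 1). Leaving out 1 heart gave -0.978 to 0.837 and reversed the sign in 2 of 6 cases. Erythroid markers moved in this comparison as well: the 4 matched summed to 226 to 379 TPM in Group 3, 72.3 to 136 in Group 2 and 74.1 to 430 in Group 1, and all 3 that were tested (HBB, HBM and ALAS2) were higher in Group 3 at an unadjusted p from limma under 0.05 (median log2 fold change 1.23, lowest adjusted p = 0.516). The relation of the ND level to these markers over the 9 hearts is given with the other relations.

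The same hearts were also compared as Group 1 against Group 3 and as Group 3 against both NRP groups together. In the first, NRP and storage duration differ at once. In the second, the NRP groups mix storage method, duration and temperature, so the part of NRP cannot be told apart in either comparison. No ND gene was called in either, against 0.0509% of all genes in each, and none had an unadjusted p from limma under 0.05, against 6.01% and 6.92%. No ND gene was without overlap in either, where 7.48% and 2.35% of all genes were. ND5 had the smallest p of the ND genes in the second, with 10355 ± 1660 TPM in the 3 hearts without NRP and 13212 ± 1873 TPM in the 6 with NRP (log2 fold change -0.35, interval -0.72 to 0.01, limma adjusted p = 0.741). Over 18 fits, again with those leaving out 1 heart, ND5 and ND4L were each under 0.05 unadjusted in 5 for Group 3 against both NRP groups. Their lowest p from limma were 0.00531 and 0.00985. Over 16 such fits each was under 0.05 in 1 for Group 1 against Group 3. An exact permutation test of the ND5 levels gave p = 0.0952, where 3 hearts against 6 can give 0.0238. The ND3 share was 2.10% ± 0.0185 without NRP and 1.78% ± 0.286 with NRP (exact permutation test, p = 0.0952, adjusted p = 0.747). The summed ND level differed by 3139 TPM between Groups 1 and 3 (p = 0.8) and by -2946 TPM between Group 3 and both NRP groups (p = 0.595, exact permutation tests).

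The remaining subunits of complex I are nuclear genes, and 23 of 37 written by symbol were matched in the table. Of these, NDUFB10 was listed at 0 in all 9 hearts and 22 were tested. Between Group 1 and Group 2, 8 were higher and 14 lower, none called and none at an unadjusted p from limma under 0.05, with a median log2 fold change of -0.10 beside -0.12 for all genes. The largest differences were those of the accessory subunit NDUFV3 (-0.44), the core subunit NDUFS7 (-0.34) and the accessory subunit NDUFA11 (-0.27). Between Group 3 and Group 2, 9 were higher and 13 lower, again none called and none under 0.05 unadjusted, with a median of -0.04. The sign of both medians was not stable: without pig 28 the first became 0.12, without pig 33 the second became 0.055 and without pig 25 it became 0.022, and median-of-ratios scaling gave 0.048 and 0.057. The accessory subunit NDUFA6 had the largest difference (-1.28, adjusted p = 0.789, limma), and its Group 3 values were 11.4, 13.1 and 0.262 TPM, so pig 34 alone was below the 10.3 to 16.0 TPM of Group 2. NDUFA9, an accessory subunit, and NDUFS1, a core subunit of the NADH-binding arm, followed with -0.29 and -0.26.

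Transcripts of the 7 ND genes outnumbered those of the matched nuclear subunits 14.6-fold (pig 30) to 38.3-fold (pig 28) in summed TPM. Both extremes were in Group 1 (26.4, 38.3 and 14.6), whereas Group 2 had 20.7, 21.2 and 26.4 and Group 3 23.9, 25.2 and 19.4. The nuclear subunits summed to 4405, 3345 and 6356 TPM in Group 1, 5213, 5381 and 4311 in Group 2 and 4639, 4387 and 5506 in Group 3. The 4 hearts with the highest nuclear sums were pigs 24, 25, 30 and 34, the hearts with the high ND4L shares. With the 13 mitochondrial genes left out of the total, the nuclear sums were 10132, 10653, 10285 and 9976 TPM in these 4 hearts and between 7378 and 10297 in the 5 others, which overlap.

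**Figure D5:**
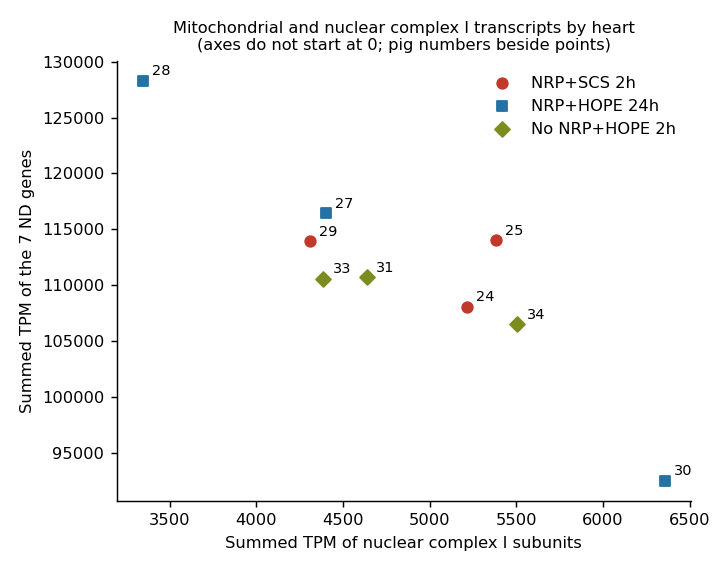
Summed TPM of the 7 ND genes (vertical) against summed TPM of the 23 matched nuclear complex I subunits (horizontal) in each heart (linear axes that do not start at 0, pig numbers beside the points). Pig 28 (128275 and 3345 TPM) and pig 30 (92545 and 6356 TPM), both of Group 1, lie at opposite ends, and the 7 other hearts lie between 106541 and 116442 TPM of ND transcripts.

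Across the 9 hearts, the mean log2(TPM + 1) of the ND genes was set against list scores computed after the 13 mitochondrial genes were left out of the total, and no relation passed the test. For the nuclear complex I subunits, Pearson's r was -0.49 (permutation p = 0.187) and Spearman's rho -0.25 (p = 0.521), and r became 0.61 without pigs 28 and 30, so its sign rested on these 2 hearts. For genes of mitochondrial DNA transcription and replication r was 0.15 (permutation p = 0.689) and rho 0.15 (p = 0.705), with r = 0.59 without the same hearts. For cardiomyocyte markers r was -0.15 (permutation p = 0.685) and rho 0.02 (p = 0.982), with r = 0.73 without them, and for erythroid markers r was -0.18 (permutation p = 0.633) and rho -0.35 (p = 0.354), with r = -0.57 without them. Over these 4 relations every adjusted p was 0.689 or higher. With list scores from TPM as deposited, the relation to the nuclear subunits became r = -0.60 (permutation p = 0.0793, adjusted p = 0.317), and r = 0.72 without pigs 28 and 30. Relations within groups were not computed.

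Genes that act on complex I assembly and on mitochondrial RNA were described in the same fit, in which Groups 1 and 3 are again both set against the Group 2 hearts, and none was called in either comparison. Of 13 assembly factors tested, 3 were higher and 10 lower in Group 1 (median log2 fold change -0.20). In Group 3, 4 were higher and 9 lower (median -0.21). Without pig 28 the Group 1 median became 0.028. Beside these, the medians over all genes were -0.12 and -0.07, with 7555 and 6803 of 11782 genes lower. In Group 1, 2 of the 13 were without overlap, against 9.82% of all genes, and in Group 3, 3 of the 13, against 14.7%. NDUFAF2, which binds a late assembly intermediate of complex I, had 3.93, 3.41 and 2.44 TPM in Group 1, 4.91, 9.43 and 9.87 in Group 2 and 2.20, 5.11 and 4.09 in Group 3. It was the 1 assembly factor of 13 with an unadjusted p under 0.05 in each comparison, against 4.97% and 7.22% of all genes, with a log2 fold change of -1.05 in Group 1 (limma adjusted p = 0.791) and -0.92 in Group 3 (limma adjusted p = 0.602). DMAC1 (-0.86) and NDUFAF4 (-0.37) followed in Group 1, and NUBPL (0.81), which delivers iron-sulfur clusters to complex I, and NDUFAF1 (-0.73) in Group 3.

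The machinery that transcribes and copies mitochondrial DNA gave medians of -0.12 in Group 1 and -0.24 in Group 3, with 1 of 9 genes higher and 8 lower in both, beside medians of -0.12 and -0.07 over all genes and 7555 and 6803 of 11782 genes lower. In Group 1, 1 of the 9 was without overlap, against 9.82% of all genes, and in Group 3, 3 of the 9, against 14.7%. For the Group 1 median median-of-ratios scaling gave 0.011. In Group 1 the largest differences were those of POLG, the mitochondrial DNA polymerase (-0.45), MTERF4 (-0.33) and MTERF1 (-0.26), none at an unadjusted p under 0.05. In Group 3, TFB2M, a transcription factor needed to start mitochondrial transcription, had 5.34, 0.400 and 3.47 TPM against 11.4, 5.52 and 7.01 in Group 2 (log2 fold change -1.34, limma adjusted p = 0.583), and it was the 1 gene of 9 in this list under 0.05 unadjusted, against 7.22% of all genes. MGME1, a mitochondrial exonuclease, and POLG followed with 0.34 and -0.34.

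Of 14 tested genes of mitochondrial RNA processing and stability, 5 were higher and 9 lower in Group 1 (median -0.16, none at an unadjusted p under 0.05), led by ELAC2 (-0.77), FASTKD1 (0.54) and FASTKD2 (-0.49). In Group 3, 3 were higher and 11 lower (median -0.33), 5 of the 14 were without overlap, all lower, against 14.7% of all genes, and 2 of the 14, ELAC2 and LRPPRC, had an unadjusted p under 0.05, against 7.22%. ELAC2, which cuts the 3′ ends of mitochondrial transfer RNAs out of the long transcripts, had 2.65, 3.46 and 3.71 TPM in Group 3 against 17.5, 8.77 and 6.94 in Group 2 (log2 fold change -1.41, limma adjusted p = 0.414). LRPPRC, which stabilizes mitochondrial messages, had 10.6, 12.6 and 15.4 TPM against 23.3, 20.6 and 21.4 (log2 fold change -0.73, limma adjusted p = 0.627). SLIRP, the protein that binds LRPPRC, was listed at 0 in all 9 hearts. FASTKD1 had a log2 fold change of -0.70. Over all genes the medians were -0.12 in Group 1 and -0.07 in Group 3, with 7555 and 6803 of 11782 genes lower. Regulators of mitochondrial biogenesis had medians of -0.25 in Group 1 (2 of 6 higher, 4 lower) and -0.32 in Group 3 (6 of 6 lower). None of these regulators had an unadjusted p under 0.05. Their largest differences were those of PPARA (-0.70), PPRC1 (-0.39) and NRF1 (-0.27) in Group 1 and of PPRC1 (-0.53), PPARA (-0.40) and NRF1 (-0.34) in Group 3, while PPARGC1A was listed at 0 in all 9 hearts.

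Marker lists of the cell types were read in the same way, and no marker was called. For Group 1 over Group 2 the median log2 fold changes were 0.06 for cardiomyocyte, -0.47 for endothelial, 0.11 for fibroblast, -0.49 for smooth muscle and pericyte, -0.12 for leukocyte and 0.91 for erythroid markers. For Group 3 over Group 2 they were -0.06, -0.33, 0.27, 0.18, -0.31 and 1.23 in the same order. Over all genes the medians of these comparisons were -0.12 and -0.07. The signs of the cardiomyocyte and leukocyte medians changed under some alternatives in both comparisons, the fibroblast median of Group 1 became -0.00094 without pig 24, and the smooth muscle and pericyte median of Group 3 became -0.014 without pig 29. The endothelial median of Group 3 became -0.0025 without pig 31. The leukocyte marker S100A9 had the smallest p of the markers in Group 3 (log2 fold change -2.17, limma adjusted p = 0.140), with 0.180 ± 0.172 TPM against 4.86 ± 3.11 in Group 2.

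The 5 genes whose log2(TPM + 1) followed the mean of the ND genes most closely over the 9 hearts, of 5224 candidates with a symbol and a mean of at least 5 TPM, were USP53 (r = 0.81), the short RNA families RF00593 (0.80), RF00610 (0.79) and RF00152 (0.74), and the kinase gene DYRK3 (0.72). When the candidates were rescaled to the total without the 13 mitochondrial genes, COQ10B, a ubiquinone-binding protein of mitochondria, came first (r = 0.86) and 4 of the 5 genes were shared. These values describe 9 hearts that share a library type and a fixed total, and pigs 28 and 30 mark the ends of the ND range.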

How the data were processed

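RNA sequencing of 9 apex biopsies was analyzed, with groups taken from the pig numbers that the labels give. The authors deposited TPM values, and every column sums to 1000000 over 25149 genes (12006 without a symbol, of which 754 were named here from the RefSeq annotation of Sscrofa11.1). That annotation also gave the gene order on mitochondrial DNA. A further 9 columns matched no sample used here and were left out. Per the labels and methods, mRNA was enriched with oligo(dT) beads, base calls were converted with bcl2fastq 2.17, reads were trimmed with Trimmomatic 0.36, mapped with STAR 2.5.2b and counted with featureCounts of Subread 1.5.2, and the authors tested counts with DESeq2. The genome build and the gene lengths behind TPM are not given in the sources used here. Counts were not used here, so depth is unknown and precision is shown by the spread between hearts. No count of spike-in molecules was used, since 0 spike-in rows are listed.

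Values were fitted as log2(TPM + 1) with limma 3.58.1 in R 4.3.3 (statmod 1.5.0 for array weights), 1 mean per group, moderated variances with a trend, for the 11782 genes that reached 1 TPM in 3 hearts or more, two-sided, with Benjamini-Hochberg adjustment over all of them within each comparison. The thresholds (absolute log2 fold change over 1, adjusted p under 0.05) follow the study's methods. Fold changes on this scale understate those of low genes. Sums and shares were compared by exact permutation tests, and relations between hearts by 100000 resamples, with scipy 1.17.1, numpy 2.4.6 and pandas 2.3.3 in Python 3.11.15, and matplotlib 3.10.9 drew the figures. Alternatives covered pseudocount, filter, scaling, hearts in the fit, variance prior, array weights, the genes in the total of a share and leaving out each heart.

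Named were the 7 ND genes, the other 6 mitochondrial coding genes, the 3 genes of a list with the largest absolute log2 fold change in the comparison discussed, and the 5 genes most like the ND genes. Others were named after their values were seen (the markers and the genes listed at 0 or under 1 TPM). The members, lists and tests were chosen with earlier results of these data known.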

Additional observations from a re-analysis of the deposited data

How the results depend on the processing

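No ND gene was called under any of the alternatives, and the lowest adjusted p for an ND gene was 0.137. The exact tests of sums and shares say nothing about stability for 3 hearts against 3, since they cannot give a p under 0.1. Of 390 values under alternatives other than leaving out a heart, 19 changed sign, 8 of them list medians. In Group 1 over Group 2, median-of-ratios scaling gave log2 fold changes of 0.065 for ND1, 0.053 for ND4 and 0.11 for ND5, array weights 0.030 for ND1 and 0.15 for ND5, and quantile normalization -0.092 for ND2. Array weights moved the median of the nuclear complex I subunits to -0.40 and that of the cardiomyocyte markers to -0.35. The difference of the ND sum became -0.0078 on the log2 scale for Group 1 over Group 2, and 6916 with median-of-ratios scaling for Group 3 over Group 2. The summed share differed by -0.0098 percentage points without ND6 and ATP8 in the total (Group 1 over Group 2) and by 0.0021 without ND4L and ATP8 (Group 3 over Group 2). The relation of the ND level to genes of mitochondrial DNA transcription and replication became r = -0.18 with list scores from TPM as deposited, and that to the nuclear complex I subunits r = -0.60 (permutation p = 0.0793, adjusted p = 0.317). The cause of these changes was not tested.

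Leaving out each heart in turn, 41 of 354 values changed sign, 13 of them list medians. For Group 1 over Group 2 the log2 fold changes ran from -0.19 to 0.071 for ND1, -0.12 to 0.32 for ND2, -0.022 to 0.20 for ND3, -0.20 to 0.061 for ND5, -0.0057 to 0.36 for ND6, -0.61 to -0.082 for ND4L and -0.22 to -0.022 for ND4. For Group 3 over Group 2 they kept their signs and ran from 0.0010 to 0.097 for ND1, 1.2e-05 to 0.18 for ND2, 0.23 to 0.40 for ND3, -0.97 to -0.48 for ND4L, -0.34 to -0.14 for ND4, -0.49 to -0.28 for ND5 and 0.029 to 0.33 for ND6. In Group 1 over Group 2 the differences in share ran from -0.335 to 0.0452 percentage points for ND1 and -0.634 to 0.0280 for ND4L. They ran from -0.524 to 0.208 for ND4 and -0.126 to 0.385 for ND5. In Group 3 over Group 2 the difference in the ND1 share ran from -0.0317 to 0.348. There the shares of ND4L (-0.969 to -0.381), ND4 (-0.857 to -0.212) and ND5 (-0.822 to -0.283) stayed lower. The ND sum differed by -7541 to 10324 TPM in Group 1 over Group 2, -4721 to -1383 in Group 3 over Group 2, -4788 to 13077 in Group 1 over Group 3 and -6883 to 263 in Group 3 over both NRP groups. The summed share differed by -0.0587 to 1.53, -0.978 to 0.837 (Group 3 over Group 2), -0.238 to 1.70 and -1.28 to 0.538 percentage points. List medians for Group 1 over Group 2 ran from 0.53 to 1.57 for erythroid, -0.46 to 0.27 for leukocyte and -0.80 to -0.21 for smooth muscle and pericyte markers, and for Group 3 over Group 2 from 0.047 to 0.40 for fibroblast and -0.50 to 0.11 for leukocyte markers and -0.40 to -0.022 for genes of mitochondrial DNA transcription and replication. No paired analysis was possible because the groups share no pig numbers. TPM carry no depth.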
